A study of Mus musculus with 6 samples.

Results

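The Hoxb cluster is the group of 10 homeobox genes, Hoxb1 to Hoxb9 and Hoxb13, on mouse chromosome 11. It was examined here as the stretch from 96050000 to 96240000 of the mm9 build, 190 kb that run from Hoxb13 at the low end to Hoxb1 at the high end. Methylated DNA had been captured with MBD2, which binds DNA through a domain that recognises methylated CpG sites, sequenced, and summarised as 1 list of peaks for each of 3 cell types. Every peak that overlapped the stretch was taken, 28 of the 164274 peaks in the 3 lists. The 200 kb on each side, with 46 peaks, served for comparison.

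The cells carry the labels Hematopoietic Stem Cell (here HSC), Common Myeloid Progenitor (CMP) and Erythroblast (ERY, a red cell precursor that still has its nucleus), all female and C57BL/6, and the study asked how methylation changes as stem cells differentiate. HSC and CMP came from adult bone marrow depleted of cells with lineage markers, HSC from the gate with both Sca-1 and c-kit and CMP from the gate with c-kit and without Sca-1. The labels do not state the source of the Erythroblasts or how they were isolated, so whether they also came from adult bone marrow is not known. Each gate can hold several kinds of cell, and without expression data the labels could not be checked against markers. There was 1 MBD2-enriched library per cell type, and the 3 supernatant libraries are not analysed here. The lists give positions only, so no replicate check, height or depth stands behind any peak, and no difference between cell types or between stretches was tested. A stretch without a peak is one where none was called. In a pool of cells, methylation in fewer cells and less methylation in each cell cannot be told apart.

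Hox genes encode homeodomain transcription factors that give cells their position along the body axis, and the order of the genes along the chromosome follows the order in which they act from head to tail. Hoxb1 and Hoxb2, at the head end of that order, pattern the hindbrain, while Hoxb9 and Hoxb13 act towards the tail. Several members are also known in blood. Forced Hoxb4 expression expands mouse stem cells, Hoxb5 marks long-term repopulating stem cells in the mouse, and enforced Hoxb8 holds mouse myeloid progenitors in an undifferentiated state. In the RefSeq gene table, which has all 10 members on the GRCm38 assembly, Hoxb13 has Ttll6 as its outer neighbour and the microRNA gene Mir196a-1 between it and Hoxb9. Hoxb9, Hoxb8, Hoxb7, Hoxb6, Hoxb5, Hoxb3, Hoxb4, Hoxb2 and Hoxb1 then follow by their starts, with Mir10a beside Hoxb4, and Skap1 is the next protein-coding gene beyond Hoxb1. The table is on another assembly than the peaks, so no peak is assigned to a gene below, and "the Hoxb13 end" and "the Hoxb1 end" name the low and the high coordinates of the window.

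MBD2 binds DNA preferentially where CpG sites are methylated, so the CpG sites are the letters that the assay reads. Promoters of 3 of the 10 members were found in the RefSeq promoter table (build GRCm38.p6), and they are shown for the CpG sites that the assay could read there. In the gene order Hoxb1 is the last member, Hoxb4 lies next to Hoxb2, and Hoxb8 next to Hoxb9. Each is 300 bases on the plus strand around the start of the gene, with CpG sites in capitals. Their positions on that build are chr11:96365508-96365807 for Hoxb1, chr11:96318017-96318316 for Hoxb4 and chr11:96281655-96281954 for Hoxb8, and these cannot be set against the mm9 positions of the peaks.
Hoxb1: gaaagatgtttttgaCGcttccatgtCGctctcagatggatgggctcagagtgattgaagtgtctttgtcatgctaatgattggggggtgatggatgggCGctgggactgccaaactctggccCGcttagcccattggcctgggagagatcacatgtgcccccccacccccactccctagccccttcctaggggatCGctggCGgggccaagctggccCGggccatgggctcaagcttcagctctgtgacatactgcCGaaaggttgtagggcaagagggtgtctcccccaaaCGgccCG
Hoxb4: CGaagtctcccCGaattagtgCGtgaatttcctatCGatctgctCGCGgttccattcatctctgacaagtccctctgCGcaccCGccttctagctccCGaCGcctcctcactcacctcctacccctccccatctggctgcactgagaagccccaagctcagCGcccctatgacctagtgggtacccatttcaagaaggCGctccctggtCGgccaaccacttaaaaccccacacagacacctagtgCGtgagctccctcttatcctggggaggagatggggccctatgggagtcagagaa
Hoxb8: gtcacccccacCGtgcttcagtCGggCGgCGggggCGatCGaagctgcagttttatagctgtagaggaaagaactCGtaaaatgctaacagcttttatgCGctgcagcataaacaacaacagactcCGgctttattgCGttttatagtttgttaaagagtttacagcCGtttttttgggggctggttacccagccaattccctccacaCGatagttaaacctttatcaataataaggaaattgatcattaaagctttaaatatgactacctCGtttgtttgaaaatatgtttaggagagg

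The Hoxb4 promoter holds 14 CpG sites, that of Hoxb8 13 and that of Hoxb1 10. The median was 20 over 21 promoters of 19 other Hox genes and 7 over all 32851 promoters of the table, whose middle 50% ran from 3 to 20. Relative to the number that its C and G content would give, the observed CpG count was 0.97 for Hoxb8, 0.593 for Hoxb4 and 0.38 for Hoxb1. The median was 0.657 over the promoters of the other Hox genes and 0.384 over all promoters. At least 1 CpG site was present in all 3 Hoxb promoters, in all 21 of the other Hox genes and in 94.6% of the whole table. The letters GGAA, the core of the sites that ETS factors bind, occurred on either strand 2 times (Hoxb1), 2 times (Hoxb4) and 3 times (Hoxb8). They occurred in 90.5% of the promoters of the other Hox genes and in 96.0% of all promoters of the table. The match is to letters alone, and nearly every promoter of the table has one.

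In the Hoxb window 13 peaks were called in HSC, 13 in CMP but 2 in ERY. The HSC peaks covered 14815 bp or 7.80% of the window, the CMP peaks 12769 bp or 6.72%, and the ERY peaks 1804 bp or 0.949%. HSC and CMP thus had equally many peaks in the window when all peaks are counted, and fewer were called in ERY. The tie depends on how peaks were cut, since the HSC peak of 3070 bp faced 2 CMP peaks parted by 137 bp. In the wider 50% of each list the window had 9 HSC, 7 CMP and 2 ERY peaks. In CMP the covered length was 86.2% of that in HSC. In ERY it was 14.1% of that in CMP and 12.2% of that in HSC. In the flanks, the covered length in CMP was 61.1% of that in HSC, and in ERY 40.7% of that in CMP and 24.9% of that in HSC. The flank beside Hoxb13 was nearer to the window at the ERY step, with 30% of CMP and 21.6% of HSC. In the whole lists, the covered length in CMP was 62.6% of that in HSC, and in ERY 52.7% of that in CMP and 33.0% of that in HSC. The ERY list is the shortest of the 3, and how much of any difference in peak number comes from unequal sensitivity was not tested.

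**Figure D1:**
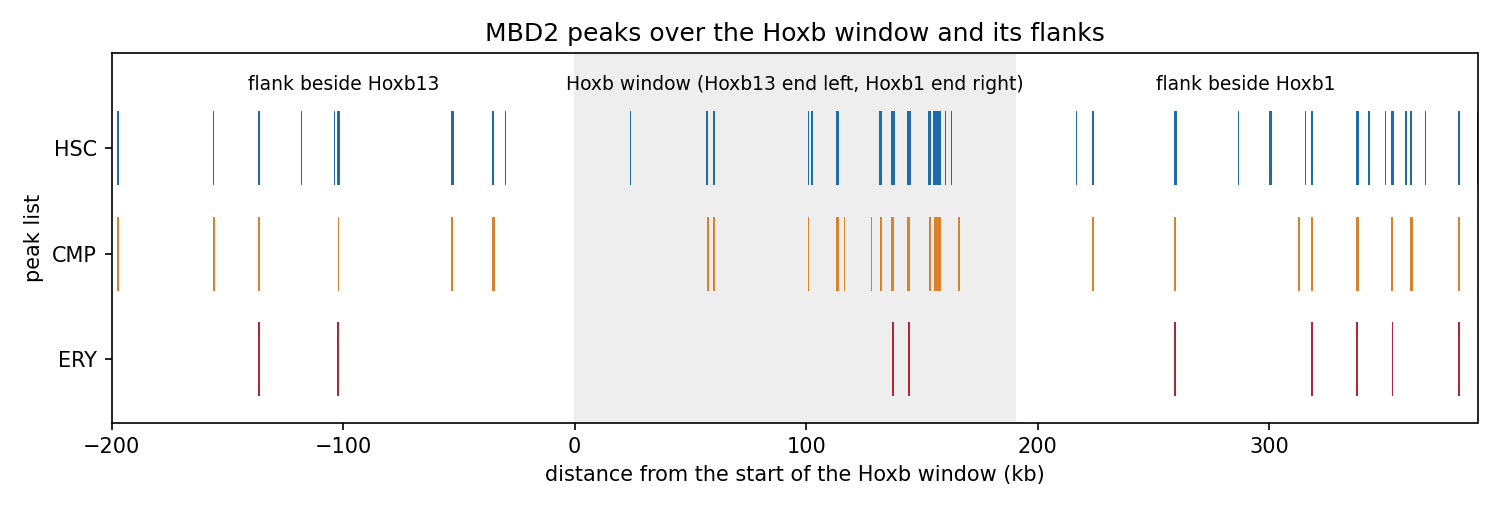
Peaks of the HSC, CMP and ERY lists (rows, top to bottom) over the Hoxb window (grey, Hoxb13 end on the left) and the 200 kb on each side, by distance in kb from the start of the window. Each bar is 1 peak drawn to scale. The window holds 13, 13 and 2 peaks, most of them right of its middle.

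Per Mb, the window held 68.4 HSC peaks, 68.4 CMP peaks and 10.5 ERY peaks. Both flanks together held 62.5, 35 and 17.5 peaks per Mb in the same order, and the rest of chromosome 11 held 43.3, 25.5 and 14.4. The Hoxb window was thus 1.09 times as dense as its flanks for HSC peaks, 1.95 times for CMP peaks and 0.602 times for ERY peaks. In HSC and ERY the choice of flank turns this comparison, and in ERY so does keeping only the wider 50% of each list, which gives 4.21 times. The flank beyond Hoxb1, towards Skap1, had 80 HSC, 40 CMP and 25 ERY peaks per Mb, and the one beyond Hoxb13, towards Ttll6, had 45, 30 and 10. Against the flank beside Hoxb1 the window held 0.855 times as many HSC peaks per Mb, and against the one beside Hoxb13 it held 1.05 times as many ERY peaks per Mb. In CMP the window was denser than either flank, by 1.71 and 2.28 times. Windows of the same length laid end to end along chromosome 11 had a median of 6 HSC, 3 CMP and 2 ERY peaks (625 windows). Their upper quartiles were 12, 7 and 4. The Hoxb window, with 13 HSC, 13 CMP and 2 ERY peaks, lay above the upper quartile in HSC and CMP and at the median in ERY.

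**Figure D2:**
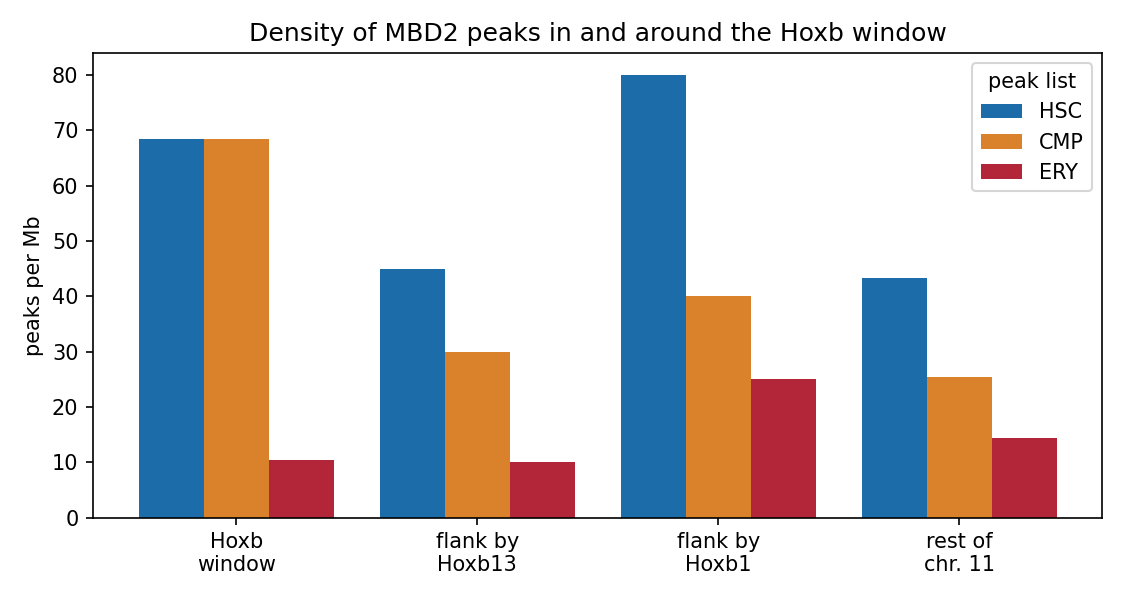
Peaks per Mb (y axis) in the Hoxb window, the flank beside Hoxb13, the flank beside Hoxb1 and the rest of chromosome 11 (x axis), as 1 bar per peak list. The HSC and CMP bars are equal, at 68.4, in the window, while the CMP bar is lower than the HSC bar in the 3 other stretches.

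The peaks were unevenly spread over the cluster. The part beside Hoxb13, from 96050000 to 96144999, had 3 HSC and 2 CMP peaks and no ERY peak. The equally long part beside Hoxb1, from 96145000 to 96240000, had 10 HSC, 11 CMP and 2 ERY peaks. Covered bases made up 13.2% of the part beside Hoxb1 in HSC, 11.6% in CMP, with 1.90% in ERY, against 2.42%, 1.79% and 0% of the part beside Hoxb13. The densest 10 kb, from 96200000 to 96209999, were covered to 44.4% in HSC and to 40.4% in CMP, with no peak in ERY. The last 20 kb counted in such steps, from 96220000 to 96239999, had no peak in any list. This division of the window was chosen after the peaks were seen. The genes were not placed on mm9, so how they divide between the 2 parts is not given.

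Long stretches without a peak lay on either side of the cluster's peaks. In HSC, 53.3 kb separated the last peak before the window (96019830 to 96020472) from the first inside it (96073747 to 96074408), and 53.4 kb separated the last inside (96212681 to 96213080) from the next beyond Hoxb1 (96266449 to 96267165). In CMP the corresponding gaps were 91.7 kb, from a peak at 96014217 to 96015376, and 57.2 kb, to a peak at 96273554 to 96274404. In ERY they were 239 kb, from a peak at 95947477 to 95948344, and 114 kb, to a peak at 96309062 to 96309790. Between the Hoxb13 and Hoxb1 ends, a further gap of 39.9 kb in HSC and 40.1 kb in CMP, beginning near 96110655, parted 3 HSC and 2 CMP peaks from all the others. Long gaps also lay within the flanks. In kb from the start of the window, HSC had no peak between -101.523 and -53.300, and CMP none between 259.899 and 312.633. Each of these is shorter than the gaps at the window's edges in the same list. Gap lengths were not compared over the chromosome, so whether such gaps are particular to the cluster is not known.

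Merging the 3 lists gave 16 regions in the window. A peak was present in HSC and CMP in 7 regions, in HSC alone in 4, in CMP alone in 3 and in all 3 lists in 2. There was no region with ERY alone, with HSC and ERY alone, or with CMP and ERY alone. As shares these are 43.8% (HSC and CMP, exact 95% interval 19.8 to 70.1%), 25% (HSC alone, 7.27 to 52.4%), 18.8% (CMP alone, 4.05 to 45.6%) and 12.5% (all lists, 1.55 to 38.3%). The flanks had 26 regions, of which 26.9% were in HSC and CMP, 42.3% in HSC alone, 3.85% in CMP alone and 26.9% in all lists. Over the whole genome the same 4 classes held 26.4%, 40.7%, 1.72% and 28.5% of regions. These intervals, here and below, are by the Clopper-Pearson method. They hold for counting error alone and take each region or peak as independent of its neighbours.

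**Figure D3:**
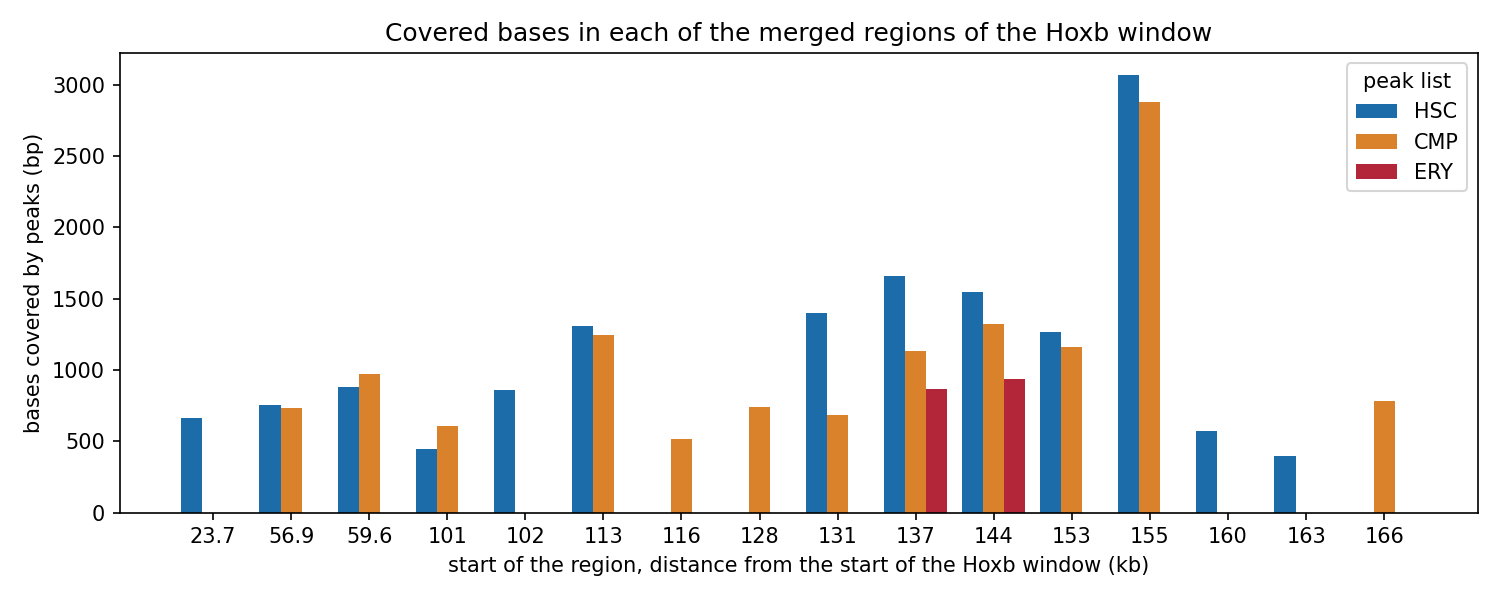
Bases covered by peaks (y axis, bp) in each of the 16 merged regions of the Hoxb window, labelled on the x axis by the distance of its start from the start of the window (kb) and ordered from the Hoxb13 end to the Hoxb1 end, as 1 bar per peak list. The 2 regions with an ERY bar stand next to each other, and the tallest bars, 3070 bp in HSC and 2879 bp in CMP, have none.

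The 2 regions with a peak in every list lay side by side in the part beside Hoxb1. In the first, at 96186615 to 96188413, the HSC peak was 1657 bp wide, the CMP peak 1133 bp and the ERY peak 866 bp. In the second, at 96193507 to 96195050, the HSC peak was 1544 bp wide, the CMP peak 1326 bp and the ERY peak 938 bp. In these 2 regions CMP covered 0.684 and 0.859 times the bases of HSC, and ERY 0.523 and 0.608 times. For CMP over HSC the median ratio was 0.796 in the 7 regions of the flanks with peaks in all lists, 5 of them lower in CMP, and 1 over the genome. For ERY over HSC the median ratio was 0.734 in the flanks, where all 7 were lower in ERY. It was 0.591 in the 5 regions of the flank beside Hoxb1, near the ratios of the window, and 0.75 in the 2 beside Hoxb13. Over the genome it was 0.894 (24935 regions). Over the genome 49.8% of these regions were lower in CMP than in HSC, and 65.1% were lower in ERY than in HSC. The 2 ERY peaks lay 6.01 kb apart.

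The widest peak of the cluster lay at 96204947 to 96208016 in HSC. It was 3070 bp wide, the 123rd widest of the 85797 peaks of the HSC list. In CMP the same place held 2 peaks, 1849 bp at 96206225 to 96208073 and 1030 bp at 96205058 to 96206087, which together covered 2879 bp and were parted by 137 bp. No ERY peak was called there, and the nearest lay 10070 bp away. A neighbouring region at 96202778 to 96204041 showed the same pattern, with 1158 bp in CMP, 1264 bp in HSC and none in ERY. These 2 regions hold most of the covered bases in the densest 10 kb of the cluster.

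The other 5 regions with peaks in CMP and HSC and none in ERY were spread along the window. Beside the first ERY region, at 96181291 to 96182687, the CMP peak covered 684 bp and the HSC peak 1397 bp, a ratio of 0.49 and the lowest among the 7. At 96162780 to 96164174 the CMP peak covered 1243 bp and the HSC peak 1310 bp. At 96150584 to 96151228 the CMP peak was the wider one, with 605 bp against 446 bp in HSC. The remaining pair lay towards Hoxb13, at 96106897 to 96107795 (732 bp in CMP, 753 bp in HSC) and at 96109586 to 96110654 (971 bp in CMP, 883 bp in HSC). Over the 7 regions the median ratio of CMP to HSC covered bases was 0.949, and it was 0.978 over the 23076 such regions of the genome. The CMP peaks covered less than the HSC peaks in 5 of the 7 regions, against 3 of 7 such regions in the flanks (median ratio 1.03) and 52.8% over the genome.

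The 4 HSC peaks without a CMP or ERY peak lay at 96073747 to 96074408 (662 bp), 96152016 to 96152872 (857 bp), 96209894 to 96210465 (572 bp) and 96212681 to 96213080 (400 bp). The first is the HSC peak nearest to the Hoxb13 end, with the nearest CMP peak 32655 bp away, and for the other 3 that distance was between 787 and 2473 bp. The widths of the 9 HSC peaks with a CMP peak ran from 446 to 3070 bp with a median of 1310 bp, against a median of 617 bp for the 4 without. The 2 sets overlap in width, between 446 and 857 bp.

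Peaks were called in CMP alone at 96166158 to 96166673 (516 bp), 96177825 to 96178563 (739 bp) and 96215554 to 96216336 (783 bp). The nearest HSC peaks lay 2068, 2727 and 2473 bp away. The last of them is the CMP peak nearest to the Hoxb1 end. These 3 were 23.1% of the 13 CMP peaks of the cluster (5.04 to 53.8%), whereas 3.54% of all 50638 CMP peaks lacked an HSC peak. In the flanks 1 of 14 CMP peaks, or 7.14% (0.181 to 33.9%), lacked one. The interval of the window lies above the share of the whole list and overlaps that of the flanks. All 3 peaks were under the median width of the CMP list, 818 bp. Among the wider 50% of each list 0 of 7 CMP peaks of the window lacked an HSC peak. The whole-list share at that cut is not given, and 3.54% is for all CMP peaks. The count of CMP peaks without an HSC peak was singled out after the peaks were seen.

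From HSC to CMP, 9 of the 13 HSC peaks of the cluster overlapped a CMP peak by at least 1 bp, 69.2% (38.6 to 90.9%), against 57.1% of all HSC peaks. In the flanks 14 of 25 did, 56% (34.9 to 75.6%). Both of these shares lie inside the window's interval. From CMP to ERY, 2 of the 13 CMP peaks overlapped an ERY peak, 15.4% (1.92 to 45.4%), against 50.7% of all CMP peaks and 50% (7 of 14, 23 to 77%) in the flanks. The whole-list share lies above the window's interval, and the intervals of window and flanks overlap. Peaks of 1 list are not replicates, so this is a description and not a test. In the wider 50% of each list the share of the window was 28.6% (2 of 7). The whole-list share at that cut is not given, and 50.7% is for all peaks. From HSC to ERY, 2 of the 13 HSC peaks overlapped an ERY peak, 15.4% (1.92 to 45.4%), against 30.9% of all HSC peaks and 28% (7 of 25, 12.1 to 49.4%) in the flanks. Here too both shares lie inside the window's interval. Both ERY peaks of the window overlapped peaks of HSC and CMP.

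**Figure D4:**
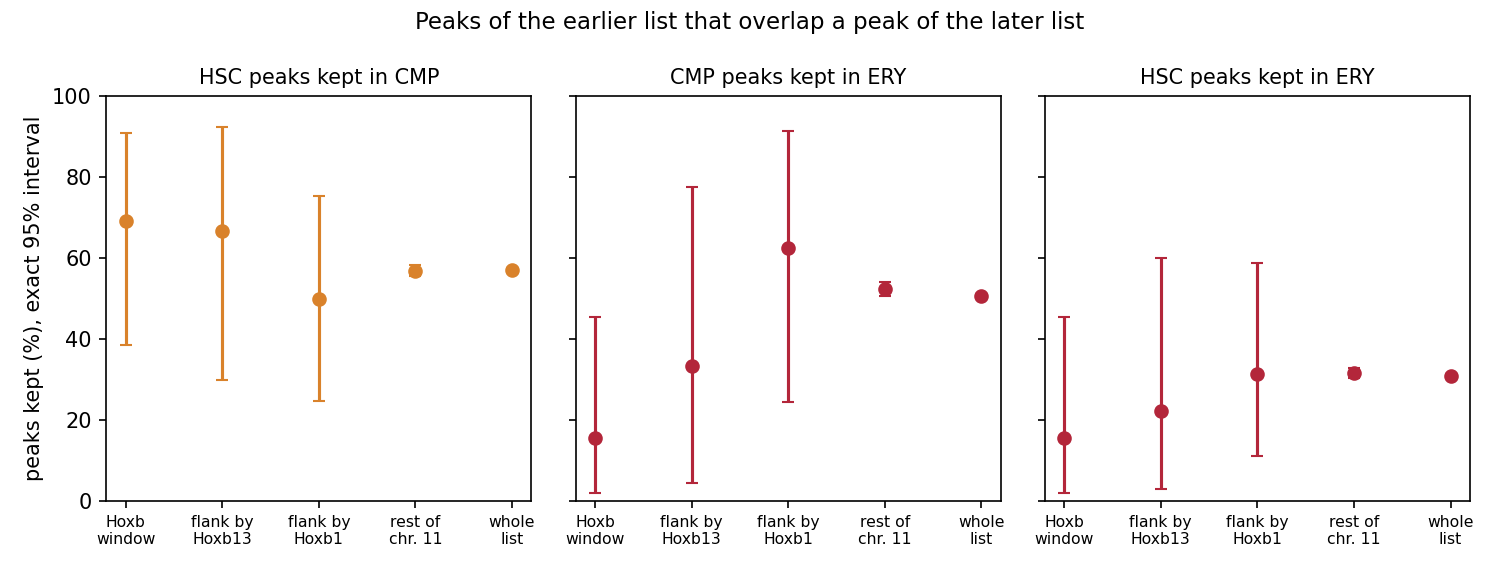
Share of peaks of the earlier list that overlap a peak of the later list (y axis, percent), for the Hoxb window, each flank, the rest of chromosome 11 and the whole list (x axis), in 3 panels by pair of lists. Points are shares and bars exact 95% intervals for counting error. The points of the window are 69.2% in the left panel and 15.4% in the other 2.

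Wide HSC peaks were common in the cluster. Peaks of the window had a median width of 883 bp (HSC), 971 bp (CMP) and 902 bp (ERY), those of the flanks 879, 859 and 729 bp, and those of the whole lists 748, 818 and 788 bp. The HSC medians of window and flanks thus differed by little. Of the 13 HSC peaks of the window, 6 (46.2%) were at least 1179 bp wide and thus among the widest 10% of the HSC list, against 2 of 25 (8%) in the flanks. All 6 lay in the part beside Hoxb1. All 6 had a CMP peak (54.1 to 100%), as did both of the 2 in the flanks. In the widest 10% of the whole HSC list the share was 85.1%, which lies inside that interval. An ERY peak was present for 2 of the 6, 33.3% (4.33 to 77.7%), against 61.3% of the widest 10% of the whole list, and for both of the 2 in the flanks. Of the 3 CMP peaks of the window among the widest 10% of the CMP list, 1 had an ERY peak, 33.3% (0.84 to 90.6%), against 79.0% of that 10% in the whole list and 1 of 2 in the flanks. Both whole-list shares for ERY lie inside the intervals of the window. The 4 wide HSC peaks without an ERY peak measured 1264, 1310, 1397 and 3070 bp, and the 2 with one 1544 and 1657 bp. The comparison by width was chosen after the peaks were seen.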

How the data were processed

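MBD2-bound genomic DNA was sequenced from 3 cell types as 36 bp single-end reads, per the labels' protocols. For each cell type the authors deposited a peak list of chromosome, start and end, exported from a genome browser per the file headers. Positions are on mm9 (build named in the submitters' processing notes). The aligner, the peak caller, its threshold, the use of the supernatant and the read depth are not stated in the labels or headers, so no read-based floor is given. Positions are printed 1-based.

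All peaks overlapping the window entered, and the text accounts for each. Peaks of 2 lists counted as shared at 1 bp or more, and touching peaks were merged into regions. With 1 library per cell type no test was run, and shares carry exact 95% binomial intervals. The members and lists were chosen with earlier results of these data known. Planned lookups of Hox and cofactor promoters were not run, since the annotation used is of another assembly. Python 3.11.15, numpy 2.4.6, pandas 2.3.3, scipy 1.17.1 and matplotlib 3.10.9 were used. The 6 overlap counts between lists were equal to those of bedtools 2.31.1, and the functions were tested on simulated data.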

Additional observations from a re-analysis of the deposited data

How the results depend on the processing

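Of 114 values recomputed, 98 stayed within 1.5 times (counts, lengths, and densities that stayed on the same side of 1) or within their interval (shares). Moving each edge of the window by 10 kb changed no peak count, covered length, share or class, and the 3 kept shares stayed within their intervals under each overlap rule. The density relative to the flanks depended on the flanks. With 100 kb flanks, which hold the long stretches without peaks, it was 1.95 (HSC), 3.42 (CMP) and 2.11 (ERY). In HSC it was 0.95 with 500 kb flanks, 0.855 against the flank beside Hoxb1 and 0.917 with the window widened. In ERY it was 1.05 against the flank beside Hoxb13 and 4.21 in the wider 50% of each list. That cut left 7 CMP peaks in the window, none of them (0%) without an HSC peak, hence 4 regions in HSC and CMP and 0 in CMP alone; narrow peaks drop out by construction. In 1 kb bins there were 11 (HSC alone), 17 (HSC and CMP) and 5 (CMP alone). A region can reach into several bins, and a bin at the edge of a shared region can hold the peak of 1 list alone. Among the widest 10% of HSC peaks, 100% of the window's 6 were kept in CMP. For the other shifts the cause was not tested. The width comparison, the CMP peaks without an HSC peak, and the changed edges for classes and densities were added after seeing the data. No paired analysis was possible because each cell type has 1 library. With 13, 13 and 2 peaks, counting error alone is wide, and the sensitivity of the lists is unknown.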
